A study of Mus musculus with 12 samples.

Results

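Among 12 mouse islet RNA libraries, 3 carried much more exocrine pancreas RNA than the other 9, and the genes that accompanied it are described here. The 3 acinar-rich libraries are KO replicates 5 and 6 and control replicate 1. They were picked because acinar enzyme genes take a larger share of their counts, so their excess of acinar RNA is how they were chosen and not a result. The other 9 libraries, called cleaner, are KO replicates 1 to 4 and control replicates 2 to 6. All 12 came from islets of Langerhans of C57BL/6 mice, 6 labelled as miR-17-92/106b knockouts (KO), which lack clusters of small regulatory RNAs, and 6 labelled as their controls. Age, sex, the alleles and any Cre driver are not given in the sources used here, nor is it stated whether each library is 1 animal, so the spread between libraries may be partly technical. The islets were isolated, their total RNA was extracted. Library totals ran from 2642420 to 3013046 counts in the acinar-rich libraries and from 2705479 to 5099566 in the cleaner ones. The number that opens each sample's title is 701, 703 and 706 for the acinar-rich libraries, which are neighbours in that numbering (659 to 662 precede them and 805 to 992 follow), so whatever the number stands for and the acinar share cannot be told apart. Mir17hg, the host transcript of the miR-17-92 cluster, had 0 to 7 counts in the KO libraries and 0 to 4 in the controls, too few to check the genotype labels.

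Pancreatic acini make digestive enzymes and secrete them into ducts, and islets are small endocrine groups embedded in that tissue. Islets are freed by digesting the pancreas and are then picked or purified, so some acinar cells or their RNA commonly stay with them. Acinar cells devote much of their RNA to a few enzyme genes, which are switched on together by a PTF1 complex that contains Ptf1a and Rbpjl, and this makes those genes sensitive markers of exocrine tissue in an islet preparation. In bulk RNA, more cells of a type and more RNA per cell cannot be told apart.

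The sequences before the starts of the 4 genes that mark the acinar share are shown because these genes moved together over all 12 libraries. They are the 250 bases before each RefSeq start on build GRCm38.p6, at chr8:111691011-111691260 (minus strand) for Ctrb1, chr15:100687921-100688170 (minus strand) for Cela1, chr19:58670115-58670364 (plus strand) for Pnlip and chr4:141826006-141826255 (minus strand) for Cela2a. The files were made on build mm9, so these positions do not apply to them. Capitals mark the E-box CANNTG and TTTCCC, each searched on both strands. The PTF1 complex is known to bind an E-box close to a TTTCCC-type element, which is why both were searched.
Ctrb1: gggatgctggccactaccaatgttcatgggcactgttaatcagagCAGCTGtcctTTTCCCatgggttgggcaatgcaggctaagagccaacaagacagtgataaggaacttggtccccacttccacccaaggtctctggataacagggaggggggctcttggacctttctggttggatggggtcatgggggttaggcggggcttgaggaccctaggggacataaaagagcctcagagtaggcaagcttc
Cela1: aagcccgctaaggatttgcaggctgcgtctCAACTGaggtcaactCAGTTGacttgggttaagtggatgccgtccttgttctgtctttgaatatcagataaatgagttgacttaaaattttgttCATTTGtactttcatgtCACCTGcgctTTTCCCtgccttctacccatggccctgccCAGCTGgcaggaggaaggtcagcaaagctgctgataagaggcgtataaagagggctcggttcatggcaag
Pnlip: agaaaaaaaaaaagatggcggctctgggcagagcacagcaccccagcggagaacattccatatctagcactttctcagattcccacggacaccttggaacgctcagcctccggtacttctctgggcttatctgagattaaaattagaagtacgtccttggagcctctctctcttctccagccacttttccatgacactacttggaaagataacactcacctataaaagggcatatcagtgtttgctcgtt
Cela2a: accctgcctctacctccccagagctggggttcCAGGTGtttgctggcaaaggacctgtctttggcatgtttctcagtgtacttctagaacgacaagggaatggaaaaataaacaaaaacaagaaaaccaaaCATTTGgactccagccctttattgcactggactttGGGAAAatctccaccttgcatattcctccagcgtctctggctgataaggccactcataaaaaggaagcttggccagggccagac
Over windows that also take in the 50 bases after the start, an E-box was found in 72.31% of 32851 RefSeq promoters and TTTCCC in 25.25%, so either alone is common. Of the 31 acinar enzyme genes that passed the filter on low counts, 23 were matched, 19 of them with an E-box and 7 with TTTCCC. An E-box followed after 4 bases by TTTCCC, a pattern written down after the Ctrb1 and Cela1 sequences had been seen, is in 2 of the 23 (those 2 genes) and in 31 of all 32851 promoters. A match here is a string of letters and not a known binding site.

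KO replicate 5 had 14.52% of its counts in acinar enzyme genes (Wilson 95% interval 14.47 to 14.56), KO replicate 6 had 11.52% (11.48 to 11.56), and control replicate 1 had 5.88% (5.86 to 5.91). The interval covers counting error only. Just outside the choice stood control replicate 5 at 2.75%, and the 9 cleaner libraries had 1.23% to 2.75%. Insulin genes took 48.6% to 57.9% of the counts in the acinar-rich libraries and 57.5% to 64.0% in the cleaner ones, so those shares overlapped at one library.

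**Figure D1:**
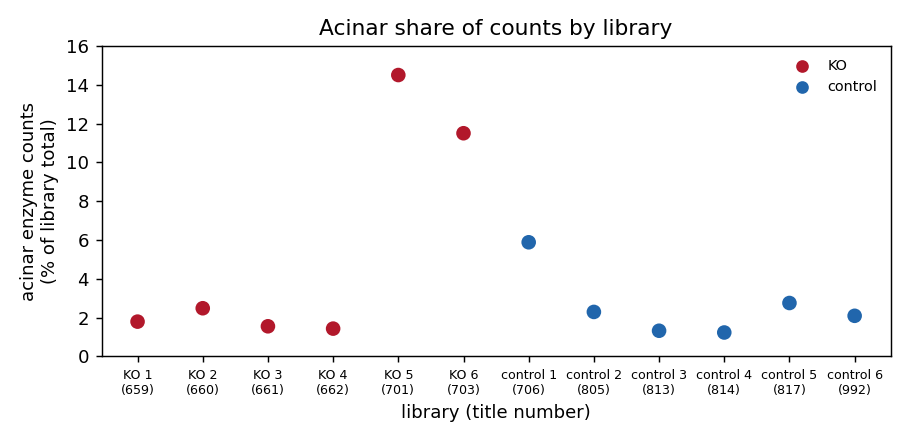
Share of each library's counts in the acinar enzyme list (y axis, percent of total) for the 12 libraries (x axis, with the number in each sample's title). The 3 acinar-rich libraries stand at 5.88% to 14.5%, and the other 9 at 2.75% or less.

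The 4 markers show the size of the gap. Levels are given as CPM, the usual depth-scaled count, with the TMM effective library size as the depth. Ctrb1, which encodes the chymotrypsinogen B precursor, was at 23500, 16780 and 9430 CPM in KO replicates 5 and 6 and control replicate 1. Among the cleaner libraries it lay between 1907 and 3411. Cela1, a pancreatic elastase gene, was at 16890, 17070 and 7301 CPM in the same order, against 1614 to 3199. Pnlip, the pancreatic lipase that digests dietary fat, was at 19040, 14980 and 6099 CPM, against 1446 to 2847. Cela2a, another elastase gene, was at 17980, 15410 and 6114 CPM, against 1372 to 2874. The 3 libraries were above every cleaner library for each of the 4, and control replicate 1 was the lowest of the 3.

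A gene is called higher where all 3 acinar-rich values lie above all 9 cleaner values, and lower where all lie below. Of 9664 genes past the filter, 169 (1.75%) were higher and 96 (0.993%) were lower. The size of a difference is a log2 value fitted with genotype as a covariate, and no p-value is given, because the libraries were chosen on these counts. The split between higher and lower genes moves with the scaling: with library totals and no TMM factor it was 73 higher and 419 lower, and with totals that leave out insulin and acinar genes 78 and 312. Those scalings shift the median difference of all genes by -0.16 and -0.11 on the log2 scale, from -0.004. The fitted difference was above 1 for 72 genes (0.745%) and below -1 for 17 (0.176%).

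The acinar enzyme list differed as a block. All 31 of its members past the filter (41 of 42 are in the table) were higher, with a median log2 difference of 2.54 and a range from 2.06 for Amy2b, an amylase, to 3.06 for Try5, a trypsinogen. Since the list and the rule use the same reads, this is a description. Against the median of the cleaner libraries of its own genotype, the median enzyme was 9.25, 7.17 and 3.09 times as high in KO replicates 5 and 6 and control replicate 1. Try5 was at 6421, 3689 and 2908 CPM in that order, against 315.3 to 778.6 in the cleaner libraries. Try4, a second trypsinogen, was at 6616, 3416 and 3099, against 420.9 to 743.1. Ctrc, chymotrypsin C, which cleaves trypsinogen, was at 1631, 1232 and 1031, against 90.64 to 362.8. Several of these families hold near-identical copies (trypsinogens, amylases, elastases), so a count may be split between them, and Amy2a2, Amy2a3 and Amy2a4 had no counts in any library.

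The make-up of the acinar RNA varied little for most genes. For 19 of the 31 genes, the share of the acinar enzyme counts in the highest of the 12 libraries was within 1.5 times that in the lowest. Ctrb1 took 14.42%, 13.2% and 15.21% in the 3 libraries and 13.8% to 14.69% in the cleaner ones. No gene had a share above every cleaner library in all 3, and 3 genes had one below every cleaner library: Cpa1, carboxypeptidase A1, with 3.978%, 3.801% and 3.636% against 4.056% to 4.434%, Amy2b, and Cel, the bile salt-activated lipase. Try4 and Try5 departed from this in KO replicate 5 and control replicate 1, while the trypsinogen Prss2 varied 1.172 times over all 12. Try4 took 4.059% in KO replicate 5 and 4.996% in control replicate 1, but 2.687% in KO replicate 6, against 2.688% to 3.399%.

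**Figure D2:**
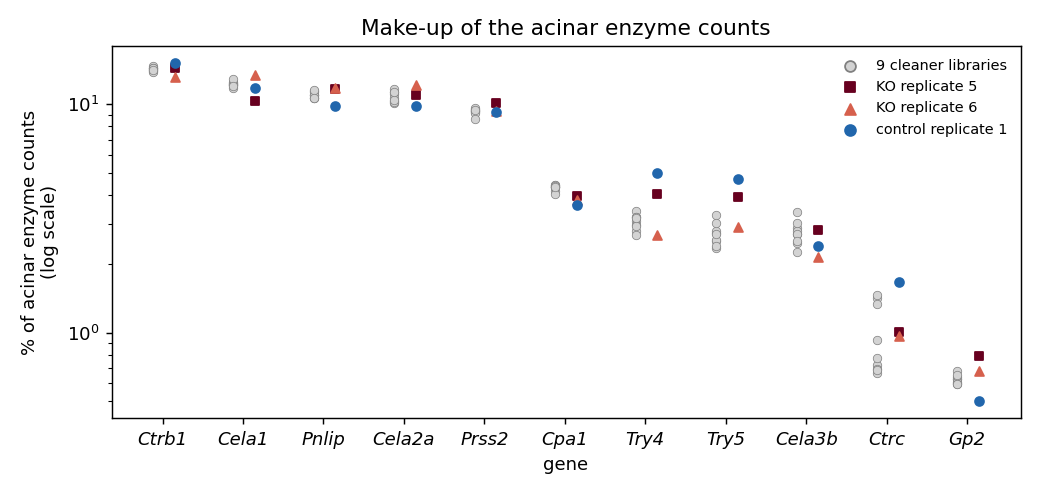
Share of the acinar enzyme counts (y axis, percent, log scale) held by 11 genes (x axis). Grey points are the 9 cleaner libraries and coloured points the 3 acinar-rich ones. Ctrb1 stays between 13.2% and 15.21%, while Try4 is at 4.996% in control replicate 1 and 2.687% in KO replicate 6.

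The list of acinar transcription factors and regulators was mixed. Of its 11 members past the filter, 7 were higher (Aqp12, Pdia2, Cckar, Erp27, Nupr1, Muc1 and Gatm), with a median of 1.79 over all 11. Pdia2, a protein disulfide isomerase of the acinar endoplasmic reticulum, was at 373.5, 275.4 and 131 CPM in KO replicates 5 and 6 and control replicate 1, against 30.14 to 55.59. Aqp12, a pancreatic water channel, was at 48.87, 36.62 and 22.39, against 3.146 to 10.12. Cckar, the cholecystokinin receptor through which meals trigger enzyme secretion, was at 24.22, 18.68 and 10.45, against 1.835 to 5.551. Erp27, an endoplasmic reticulum protein, was at 92.64, 79.47 and 39.93, against 10.54 to 17.06. Bhlha15 (Mist1), a transcription factor of secretory acinar cells, was fitted at -0.52 and was not higher. Rab3d, a GTPase of secretory granules, was at 70.54, 65.92 and 54.11, against 55.84 to 75.55, and Tmed6 at 22.52, 59.69 and 9.703, against 4.326 to 16.98, so both overlapped, and Gnmt did as well. Ptf1a and Rbpjl, the factors of the PTF1 complex, did not pass the filter: Ptf1a was at 3.825, 4.395 and 3.732 CPM against 0 to 1.717, and Rbpjl at 6.374, 10.62 and 3.732 against 0.3767 to 2.985.

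The Reg family was higher too. The Reg genes encode secreted lectins that acinar cells are known to raise in inflamed or injured pancreas, and they are listed apart from the enzymes. All 4 members past the filter were higher. Reg2 was at 834.6, 530.7 and 174.6 CPM in KO replicates 5 and 6 and control replicate 1, against 17.25 to 73.33, a fitted difference of 4.11. Reg3b was at 55.67, 57.13 and 42.17, against 1.775 to 16.22, a difference of 3.68. Reg3d had 51.84, 37.35 and 24.26, against 0.7535 to 7.571. Reg1 had 2511, 2087 and 1009, against 149.9 to 304.4, and its difference of 2.98 lay within the range of the enzymes. The highest cleaner value of Reg2 and Reg3b was in control replicate 2, which had an acinar share of 2.29%. The median Reg gene was 17.8 and 15.4 times its cleaner level in KO replicates 5 and 6.

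Duct, vessel and connective tissue genes past the filter had list medians between -0.20 and 0.02. The duct markers Krt19, Sox9 and Cftr were below the filter, with at most 19, 14 and 2 counts in any library. A change in duct cells could therefore be missed. Among 10 ductal and epithelial genes past the filter, 1 was higher, and the median difference was 0.02. That gene is Tff2, a secreted trefoil peptide, at 371, 263.7 and 90.68 CPM against 33.15 to 62.27. The summed level of the 24 listed duct genes, Tff2 included, was 798, 692.5 and 506.8 CPM, against 444.7 to 493.1. Without Tff2 these sums overlapped with the cleaner ones. Of 15 endothelial genes 0 were higher and 0 lower, with a median of -0.14, and Cd34 had the largest fitted difference at 0.48. Stellate, fibroblast and pericyte genes had 3 members past the filter and none outside the cleaner range, with a median of -0.20 and Des at -0.37. Adipocyte, erythroid, granulocyte and Schwann genes had 0 higher and 0 lower, with 1, 1, 1 and 6 members past the filter. Of all tested genes only 1.75% were higher and 0.993% lower, so counts of 0 in lists this short say little. The summed level of the 11 listed granulocyte and mast cell genes, most of them below the filter, was 32.3, 31.86 and 34.33 CPM, against 24.7 to 31.2, a small gap with no overlap. Most of that sum is Cxcr2, with 58, 80 and 82 counts in the 3 libraries, and the rest is a few counts per gene. The named members overlapped: Fabp4 was fitted at -0.11, Beta-s at 0.21 and Cxcr2 at 0.19.

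**Figure D3:**
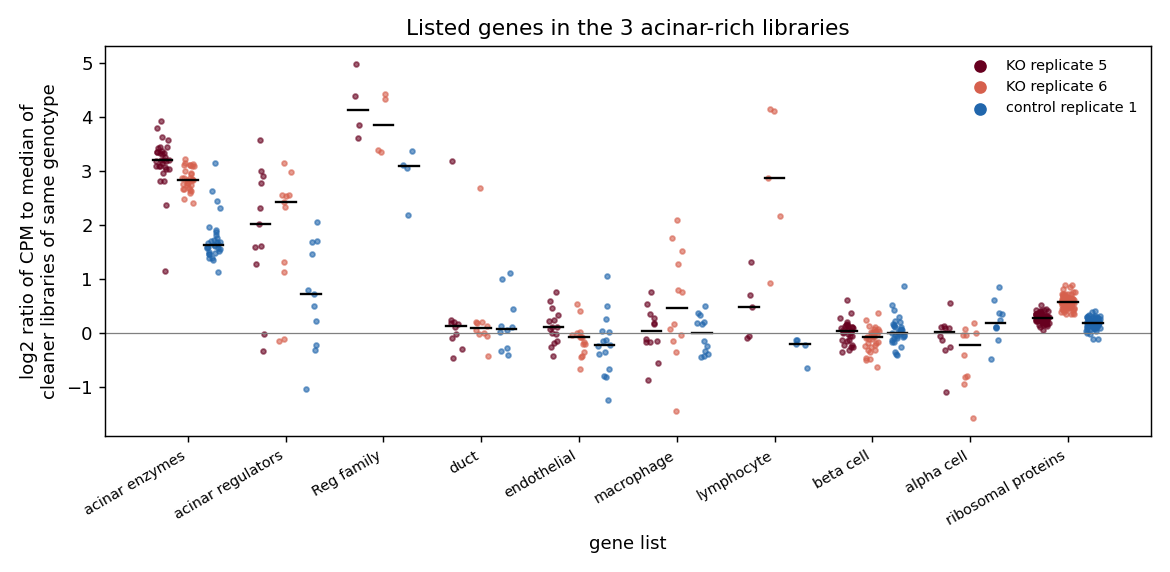
Log2 ratio of each listed gene (points) to the median of the cleaner libraries of its own genotype, by list (x axis), in the 3 acinar-rich libraries (colours), with the list median as a bar. Acinar enzymes and Reg genes lie far above 0 in all 3, lymphocyte genes do so in KO replicate 6, and endothelial, beta cell and alpha cell medians lie near 0.

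Lymphocyte genes stood out in a single acinar-rich library. KO replicate 6 had a summed level of 329.2 CPM over 28 listed lymphocyte genes, while KO replicate 5 had 43.34, control replicate 1 had 29.11 and the cleaner libraries 29.39 to 38.6. Of the 28 genes, 23 were highest in KO replicate 6, with no share over all genes counted for comparison. At least 2 times as high there as in the next library were 20 of the 28. The B cell genes were among them: Cd79b, a subunit of the B cell receptor, had 90 counts against at most 9 elsewhere, and Ms4a1 (CD20) had 35 against at most 4. T cell genes were few, with 12 counts of Cd3d and 1 of Cd3e, and Pax5, a B cell factor, had 0 in all 12. Cd52, a surface glycoprotein of leukocytes, was at 10.62, 73.98 and 3.732 CPM in KO replicates 5 and 6 and control replicate 1, against 3.219 to 7.89. Coro1a, an actin-binding protein of leukocytes, was at 3.825, 48.34 and 3.359 in that order, against 2.097 to 4.759. Hence 0 of the 5 members past the filter were higher by the 3-library rule although their median difference was 1.45, and without KO replicate 6 that median was 0.10.

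Class II genes of the macrophage and dendritic cell list were also highest in KO replicate 6, and complement genes of that list were not. Cd74, the invariant chain of MHC class II, was at 38.25, 113.2 and 29.48 CPM in KO replicates 5 and 6 and control replicate 1, against 17.5 to 31.33. H2-Eb1, an MHC class II chain, was at 46.14 in KO replicate 6 and at 12.08 to 18.27 in the other 11 libraries. C1qb, C1qc and C1qa, complement genes of macrophages, were at 0.3657, 0.7816 and 0.9789 times their cleaner KO median in KO replicate 6. The counts there were 5, 11 and 107. Other members of the list below the filter were mixed in that library. Lyz1 had 33 counts and Lyz2 had 26, more than in any other library, while Cd68 had 0 and Cd14 had 1. None of the 12 macrophage and dendritic cell genes past the filter was higher or lower, against 1.75% and 0.993% of all genes, and their median was 0.14. The summed level of 24 genes of that list was 183.6, 349.7 and 164.6 CPM, against 146.9 to 169.3. The leukocyte excess of KO replicate 6 rests on that library alone.

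**Figure D4:**
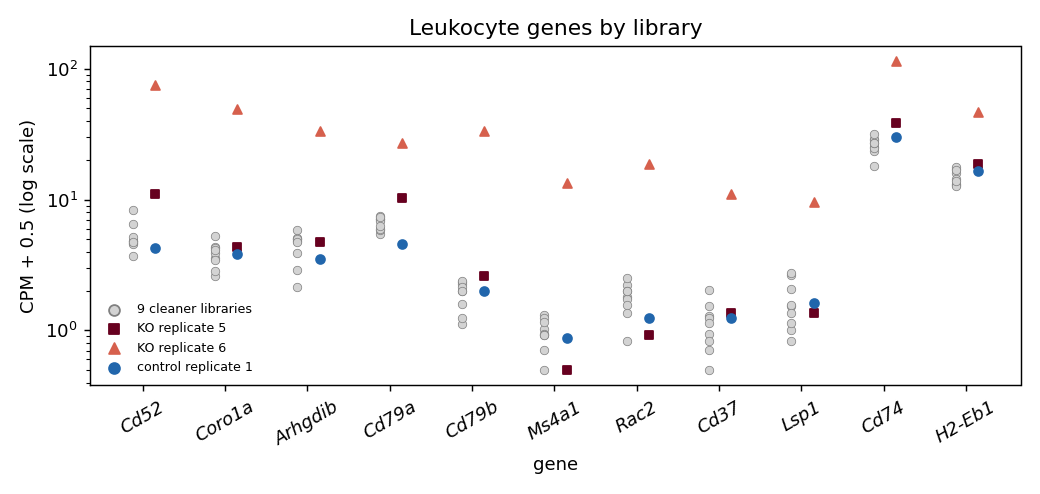
Level of 11 leukocyte genes (x axis) as CPM plus 0.5 (y axis, log scale). Triangles are KO replicate 6, which lies above all other libraries for each of the 11, with Cd52 at 73.98 CPM and Cd74 at 113.2 CPM.

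Islet hormone and identity genes overlapped between the sets after scaling. Ins1 was at 155600, 137500 and 147800 CPM in KO replicates 5 and 6 and control replicate 1, against 146000 to 172500. Ins2 was at 390400, 455600 and 462700, against 370400 to 515600. Of 33 beta cell genes 1 was higher, Rgs4, a regulator of G protein signalling, at 23.37, 17.94 and 26.5 against 12.33 to 17.63, and the list median was -0.02. With library totals, or totals without insulin and acinar genes, 0 were higher and 2 were lower, with medians of -0.17 and -0.12. Gcg, glucagon, was at 12470 CPM in control replicate 1 and at 6013 and 5820 in the KO pair, against 5081 to 8032. The alpha cell list of 10 genes had 0 higher and 0 lower with a median of 0.01. Sst, somatostatin, was at 2031, 2082 and 3275, against 1926 to 3248, and Ppy, pancreatic polypeptide, at 2616, 3908 and 2524, against 1096 to 3979. The delta and PP list of 8 genes had 0 higher and 0 lower, with a median of 0.06 and Npy at 0.62. Over all tested genes 1.75% were higher and 0.993% lower, so the counts in these short lists say little.

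Of 71 cytosolic ribosomal protein genes past the filter, 15 were higher by the non-overlap rule, against 1.75% of all tested genes. With TMM scaling all 71 were fitted above 0, against 4757 of all 9664 genes, and the median of the 71 was 0.34. Their summed level was 33820, 41610 and 32990 CPM in KO replicates 5 and 6 and control replicate 1, against 26460 to 34040, so the sums overlapped. Under the other scalings the non-overlapping genes were 6 (library totals) and 2 (totals without insulin and acinar genes), with medians of 0.18 and 0.24. Rpl35 had 390.5, 477.6 and 359 CPM in KO replicates 5 and 6 and control replicate 1, against 263.1 to 354.7, Rpl23 had 683.7, 899.1 and 672.8 against 495.9 to 618.6, and Rpsa had 576.2, 719.6 and 525.8 against 387 to 515.8. KO replicate 6, the library with the lymphocyte genes, was the highest of all 12 for 68 of the 71. The share of all tested genes highest in that library was not counted, and the part of the lymphocyte genes in this was not tested. Without KO replicate 6 the median was 0.22 with 15 higher. Without control replicate 4 there were 56 higher, and without control replicate 1 there were 32. In the translation factor list 2 of 24 were higher, Eef1b2 at 0.31 and Eef1d at 0.29, but under both of those scalings 0 were higher and 1 was lower. In the respiratory chain list 2 of 54 were higher, Ndufa6 at 0.37 and Ndufb9 at 0.35, with a median of 0.13, but 0 were higher and 2 lower with library totals, and 0 and 0 without insulin and acinar genes.

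Stress lists had few or no genes called higher or lower. Calls were rare over all tested genes too (1.75% higher and 0.993% lower), so these counts say little. Of 28 endoplasmic reticulum chaperone and stress genes 1 was lower, Dnajb9, a co-chaperone, at 76.49, 71.05 and 64.93 CPM against 82.13 to 119, with a list median of 0.003. With the other scalings 4 (library totals) and 2 (totals without insulin and acinar genes) were lower. Of 17 immediate early and dissociation genes 0 were higher and 0 lower, and Nr4a1 was fitted at -0.54. Sex-linked genes had 0 higher and 0 lower of 4, with Eif2s3y at 0.33. Rn45s, a ribosomal RNA precursor locus, had a share of 5.11% in KO replicate 5, while the remaining 11 libraries had 1.78% to 2.71%.

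Outside the acinar and Reg lists, 127 genes were higher, and 106 of them were in no list. Of those 106, 14 had a fitted difference above 1. Ggt1, gamma-glutamyltransferase, was at 26.35, 27.83 and 7.09 CPM in KO replicates 5 and 6 and control replicate 1, against 2.637 to 6.824. Slc39a5, a zinc transporter, was at 21.67, 15.75 and 7.837, against 1.268 to 5.902. Gamt, which makes creatine, was at 14.02, 13.18 and 6.344, against 1.13 to 5.877, and Vtn, vitronectin, at 25.5, 15.75 and 13.43, against 2.26 to 6.594. These 4 were picked for mention after their values were seen.

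Some higher genes lie next to an acinar enzyme gene. In RefSeq gene order, 15 tested genes neighbour one, and 2 of them were higher (13.33%), against 122 of 9352 (1.305%) that do not. Casp9, an initiator caspase and neighbour of Cela2a, was at 37.82, 40.28 and 22.02 CPM, against 6.292 to 13.71. Psmb10, an immunoproteasome subunit and neighbour of Ctrl, was at 58.64, 55.3 and 28.36, against 15.99 to 19.81. Gm13011, the neighbour of Cela3b, is not on the enzyme list and was counted among the 15. KO replicate 6 had only 16.85 CPM of it, below the cleaner range of 33.15 to 47.77, unlike the listed enzymes. KO replicate 5 had 384.2 CPM, and control replicate 1 had 108.2. Whether Gm13011 is itself a copy of an enzyme gene that shares reads with Cela3b was not tested. Neighbours were found by gene order only, and whether any of them overlap was not checked. Counting by strand is not stated, so reads of overlapping neighbours, if any, cannot be separated.

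Genes that were lower had small differences. The 12 largest by the naming rule ran from -0.68 for Zdbf2, an imprinted gene, to -0.49 for Golga3, a Golgi protein, and 1 of the 96 lower genes belongs to any list. Zdbf2 was at 12.75, 16.48 and 20.53 CPM in KO replicates 5 and 6 and control replicate 1, against 23.67 to 33.15. Ccdc6 was at 20.4, 16.11 and 20.15, against 23.67 to 33.09, and Esyt1, an extended synaptotagmin, at 20.4, 19.41 and 18.29, against 23.18 to 31.65. The others named by the rule were Eml1, Athl1, Ipmk, Apbb2, Lepre1, Muc4, E130309D02Rik and Urgcp. Their transcripts were longer: the median length of the longest annotated transcript was 4230 bases for the lower genes, 3388 for all tested and 2045 for the higher genes outside the acinar and Reg lists (2288 without ribosomal proteins).

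The 9 cleaner libraries also differed among themselves in acinar RNA. The same acinar counts had set them apart from the 3. The slopes of acinar enzymes, acinar regulators, Reg genes and Tff2 are therefore given as a description, and p-values are printed for other genes only. The summed level of the 4 markers in the 9 ran from 6538 CPM in control replicate 4 to 12627 in control replicate 5, and each gene was fitted against its log2 with genotype as a covariate in edgeR's quasi-likelihood test, with Benjamini-Hochberg adjustment over all genes. Of 10138 genes other than the markers, 31 rose (0.306%) and 18 fell (0.178%) with an adjusted p of 0.05 or less. The slope is the log2 change per doubling of the marker level, so a gene that scales with the markers has a slope near 1. Of the 31, 23 were acinar enzymes, out of 27 tested. The marker level is itself made of 4 acinar enzymes, so their rise was largely set in advance and is no evidence. The 27 had a median slope of 0.88, against -0.002 over all genes.

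Among the enzymes, Amy2b ran from 26.56 to 78.69 CPM over the 9 libraries and had a slope of 1.69 ± 0.147 (SE). Cpa1 ran from 545.9 to 1085 and had a slope of 1.01 ± 0.0883 (SE). The trypsinogen-like gene 2210010C04Rik had a slope of 1.04 ± 0.0885 (SE), and Try5, Prss2 and Cel had slopes of 1.16, 0.92 and 0.93. Ctrc had a slope of 1.76 ± 0.157 (SE), but its share of the acinar counts fell into separate levels, at 1.328% to 1.468% in control replicates 2, 5 and 6 and at 0.662% to 0.9266% in the other 6. Prss3, Try10, Cuzd1 and Serpini2 had slopes of -0.12, 1.10, 0.71 and 0.92.

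Outside the enzymes, 3 listed genes that were higher in the acinar-rich libraries also rose with the marker level. Reg1 had a slope of 0.88 ± 0.119 (SE), Tff2 0.89 ± 0.132 and Pdia2 0.72 ± 0.133. All 3 were already higher in libraries chosen for acinar RNA, so their rise is a description and no evidence. Reg2, Reg3b and Reg3d had slopes of 0.83, 1.53 and 1.23 and did not pass. Aqp12, with a slope of 1.19, did not pass either. Nupr1, a stress-inducible gene that was higher in the 3 libraries at 1.81, had a slope of -0.13, and Casp9 one of 0.58 (edgeR adjusted p = 0.498). None of the 71 ribosomal protein genes passed, and their median slope was -0.22, opposite in sign to their difference in the acinar-rich libraries. Other rising genes included Lpl and Tnrc18, named after their values were seen, and neither was higher in the 3 libraries. In all, 26 of the 31 rising genes were also higher in the 3 libraries, most of them enzymes, whose rise was largely set in advance. Of the 26 that held in every fit leaving out 1 of the 9, 25 belong to the acinar or Reg lists.

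Most falling genes depended on which libraries were fitted. Dapl1 fell with a slope of -0.92 ± 0.126 (edgeR adjusted p = 1.54e-06) and was the only 1 of the 18 that held in all 9 fits leaving out a library. It was at 67.99, 58.96 and 41.42 CPM in KO replicates 5 and 6 and control replicate 1, within the cleaner range of 37.55 to 73.49. Psat1, of serine synthesis, had a slope of -2.05, Ttr, transthyretin of alpha cells, -0.50, and Gc, the vitamin D-binding protein of alpha cells, -0.81. Uqcr11, Hspe1, Fkbp11 and Vkorc1 had slopes from -0.62 to -0.42, and Ins2 one of -0.34. Of the 18, 17 passed the filter over all 12 libraries. Of those 17, 0 were lower in the acinar-rich libraries, but only 0.993% of all genes were, so this says little. Fitted above 0 there were 10 of the 17, near the share over all genes (4757 of 9664). The count of falling genes was 7 without control replicate 2, 6 without control replicate 3 and 6 without control replicate 4.

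**Figure D5:**
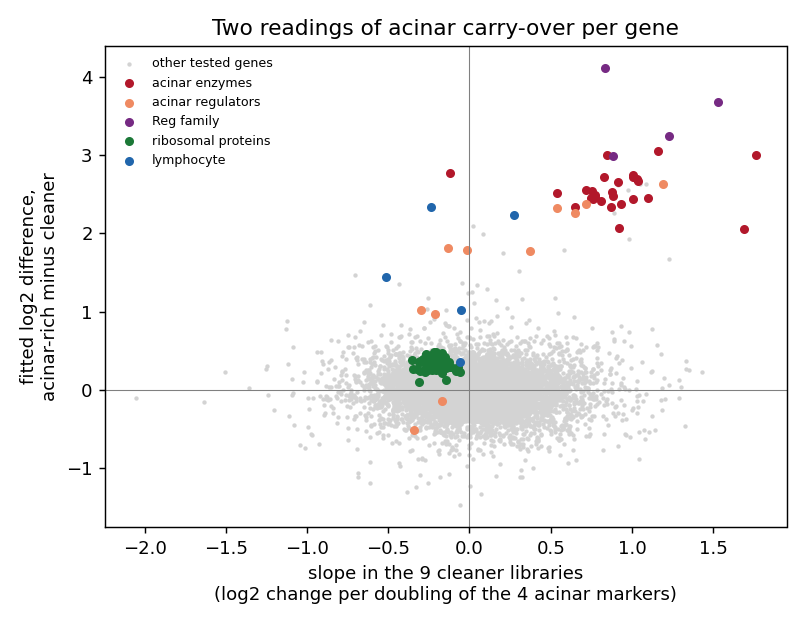
Each tested gene by its slope on the marker level in the 9 cleaner libraries (x axis, log2 per doubling) and its fitted difference between acinar-rich and cleaner libraries (y axis, log2), the 4 markers left out of the coloured groups. Acinar enzymes lie high on both axes, with Try5 at 1.16 and 3.06, while ribosomal proteins lie left of 0 with a median slope of -0.22.

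Of the 3 libraries, 2 are KO and 1 is control. The acinar share was 5.55% ± 5.87 (SD, n = 6) in KO and 2.59% ± 1.71 (SD, n = 6) in control. Without the 3 libraries the shares were 1.81% ± 0.469 (SD, n = 4) and 1.93% ± 0.651 (SD, n = 5). No test is given, because the share is the value by which the 3 were chosen. The median difference of the 31 acinar enzymes between KO and control, on the log2 scale, was 1.19 with all 12 libraries and -0.06 without the 3, and none of the 31 passed in either fit.

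Leaving out the 3 libraries changed which genes passed between KO and control. With all 12, edgeR called 12 of 9664 genes (0.124%), 7 higher and 5 lower in KO, and 764 had an unadjusted p under 0.05. Without the 3 it called 30 of 10142 (0.296%), 13 higher and 17 lower, and all 12 earlier calls were among them. A term for the acinar-rich libraries gave 33 calls in all 12 libraries, and the marker level as a covariate gave 34. None of the 30 was higher or lower in the acinar-rich set. Of all genes only 1.75% were higher and 0.993% lower, so few or none would be among any 30 genes. Every KO title number is below every control number, with or without the 3, so genotype and that order cannot be told apart in any of these fits.

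The 18 genes that gained a call were picked because they passed only without the 3 libraries, which favours a larger difference in that fit. As a description only, all 18 had a larger log2 difference there, 1.03 to 1.38 times the value with all 12 (median 1.20). Magt1, an oligosaccharyltransferase subunit, went from -0.45 ± 0.106 (SE, edgeR adjusted p = 0.0963) to -0.63 ± 0.0798 (edgeR adjusted p = 5e-06). Rps9, a ribosomal protein, went from -0.44 (edgeR adjusted p = 0.0538) to -0.52 (edgeR adjusted p = 0.000172). Cdkn1a, the cell cycle inhibitor p21, went from 0.59 ± 0.178 (edgeR adjusted p = 0.3) to 0.81 ± 0.162 (edgeR adjusted p = 0.00852). Rab6a, a Golgi GTPase, went from 0.33 to 0.46 (edgeR adjusted p = 0.18 and 0.00273). With a term for the 3 libraries in place of leaving them out, Rab6a and Cdkn1a were at 0.33 and 0.62 and did not pass (edgeR adjusted p = 0.0802 and 0.103). The others named by the rule were Slc4a7, Tpgs2, Cd200 and Rasgrf2 among the higher and Dusp26, Deptor, Fxyd6 and Scd2 among the lower.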

How the data were processed

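The authors deposited a table of raw counts per gene for 12 libraries. Alignment with TopHat2, counting with HTSeq and DESeq2 1.4.5 on build mm9 are named, with no order, per the submitters' processing notes. A block of 12 normalized columns was not used. Of 23366 rows, 27 whose names had turned into dates (0.0447% of counts) were left out. Counts were analysed in R 4.3.3 with edgeR 4.0.16 (limma 3.58.1; TMM, filterByExpr with a minimum count of 10 and total of 15, quasi-likelihood test, Benjamini-Hochberg adjustment, threshold 0.05), with DESeq2 1.42.0 as an alternative. Acinar-rich and cleaner libraries were compared by fitted differences with genotype as covariate and by ranges. The acinar-rich libraries and all 21 gene lists were chosen with earlier results of these data known. The genes named are the 12 largest rises and 12 largest falls whose ranges do not overlap (mean of at least 50 counts), fixed hormone and marker genes, up to 4 per list, up to 8 per direction for the slope and up to 6 per direction whose KO call changed; exceptions are marked, and a few genes the rule names are not reported here. Gene names, neighbours, transcript lengths and promoters came from GENCODE and RefSeq on GRCm38, which is not the files' build. Tested on simulated data over 10142 genes, 2-fold slopes were recovered in 64.5% of cases, and over 9664 genes 2-fold KO differences in 89.7%. No 2 libraries agreed within sampling noise (lowest chi-square per gene 2.04 over 66 pairs).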

Additional observations from a re-analysis of the deposited data

Results flagged for a closer look

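Within each genotype, 60 genes and shares were checked for 1 library standing apart from the other 5 (Dixon's 95% critical value), which makes 120 checks, and 29 were marked. Chance marks about 1 in 20 groups. The acinar-rich libraries were chosen for such values, so the marks on acinar genes describe that choice.

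Of the 29 marks, 24 fell on control replicate 1, the only acinar-rich library among the controls. It stood apart with an acinar share of 5.88%. In CPM, its acinar enzyme genes stood apart with Try5 at 2908, Try4 at 3099, Ctrc at 1031, Prss3 at 22.39, Zg16 at 1686, Spink3 at 241.1, Rnase1 at 875.5, Gp2 at 309.7, Ctrb1 at 9430, Cela1 at 7301, Pnlip at 6099 and Cela2a at 6114. Its listed acinar regulators did so with Aqp12 at 22.39, Pdia2 at 131, Cckar at 10.45 and Erp27 at 39.93 CPM. The Reg genes stood apart there with Reg1 at 1009, Reg2 at 174.6, Reg3b at 42.17 and Reg3d at 24.26 CPM. Outside these groups, Rgs4 at 26.5 and Eif2s3y at 11.94 CPM stood apart as high values in control replicate 1, and Urgcp at 11.94 CPM as a low one. In the KO group 2 of 6 libraries are acinar-rich, so neither can stand apart from the rest in the same way.

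KO replicate 6 stood apart for Cd52 at 73.98, Cd74 at 113.2 and Coro1a at 48.34 CPM, and for Eef1d at 100.3 CPM. KO replicate 5 stood apart for the share of Rn45s, 5.11% of its counts.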

How the results depend on the processing

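Of the genes named, counted over each alternative, 1114 values of the acinar-rich difference stayed within the spread between the cleaner libraries and 108 moved by more. Direction was checked only for genes called higher or lower, so a gene whose ranges overlap could change sign within that spread. The counts of higher and lower genes were 73 and 419 with totals and no TMM factor, 78 and 312 with totals without insulin and acinar genes, 285 and 210 with ranges compared within each genotype, 1675 and 1700 for control replicate 1 alone against the cleaner controls, and 895 and 837 for KO replicates 5 and 6 alone against the cleaner KO libraries. Leaving out 1 library gave 181 to 447 higher and 111 to 400 lower, with 403 and 400 without KO replicate 5, 337 and 286 without KO replicate 6, 447 and 356 without control replicate 1 and 267 higher without control replicate 4. Fewer libraries make non-overlap easier to reach.

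In the cleaner libraries the count of rising genes stayed between 27 and 34 when 1 library was left out. The falling genes were 18, against 30 with DESeq2, 7 without the genotype covariate and 6 to 17 when 1 library was left out. With acinar and Reg genes other than the markers removed before scaling, an alternative chosen after seeing the data, 4 genes outside those lists fell and 5 rose. The cause was not tested.

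Between KO and control, the higher and lower genes were 13 and 17 without the 3 acinar-rich libraries, 15 and 18 with a term for them and 14 and 20 with the marker level as covariate, and DESeq2 gave 16 lower. Leaving out 1 library gave 4 to 10 higher and 1 to 9 lower. Libraries with the same replicate number did not deviate together (correlations of -0.11 to 0.05, and 0 of 6 correlated best with their own number), and a replicate block gave 7 higher and 8 lower. The difference in acinar share, 2.955 percentage points, was -0.1218 without the 3 libraries, and 1.161 to 3.779 when 1 library was left out.

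Depth limits the low genes: the 3 libraries hold 974190 to 1046420 counts outside insulin and acinar genes, so genes with few counts, such as Ptf1a, are given as values only.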
